A study of Mus musculus with 6 samples.

Results

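Cholesterol synthesis and the genes switched on by SREBP2 were followed in mouse liver through 27 genes, chosen by name from the count table, which lists 35977 genes in all. Of the 27, 19 encode enzymes from the condensation of acetyl-CoA to cholesterol, counting Ggps1, which serves a side branch. A further 4 encode proteins that sense sterol and control the pathway, and 4 encode proteins of sterol transport, uptake and esterification. Of the 27 genes, 26 had enough counts for the main test and the remaining gene, Npc1l1, did not. Bulk liver RNA was sequenced after injection of an adeno-associated virus of serotype 9 (AAV9). In the group called Cre (n = 3 libraries, replicates 10, 11 and 12) the vector AAV-Tnnt2-Cre carried the recombinase Cre under the promoter of Tnnt2, the cardiac troponin T gene, which is meant for heart muscle rather than liver. In the group called Cre-miR122 (n = 3 libraries, replicates 1, 2 and 4) the vector AAV-Tnnt2-Cre-miR122 also had target sites for miR-122, the dominant microRNA of hepatocytes. All 6 libraries thus came from liver given a Cre vector, and no liver without vector is compared here. The sources used here give no strain, host alleles, age, sex, dose or time after injection, nor do they say whether each library came from a separate animal, so p-values measure the spread between these libraries only.

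SREBP2, encoded by Srebf2, is a membrane-bound transcription factor held in the endoplasmic reticulum. When sterol is scarce its escort SCAP carries it to the Golgi, where it is cut free and turns on the synthesis genes, and when sterol is plentiful the INSIG proteins hold SCAP back. The liver makes cholesterol, takes it up, stores it as esters and disposes of it as bile acid. In mice, antisense inhibition of miR-122 is known to lower the expression of cholesterol synthesis genes, which makes this pathway one of interest where a vector carries sites for that microRNA.

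Total counts lay between 20340994 and 20817837 per library, and a chi-square test of the 15 pairs of libraries (5.76 or more per degree of freedom) found no pair that differed by counting error alone. Cre replicate 10 stood apart by its sex-linked genes, with 1676 counts of the Y-linked Ddx3y and 5 of Xist, against at most 1 and at least 15778 in each of the other 5. By these genes Cre replicate 10 was male and the other 5 libraries were female. The only male library was thus in the Cre group, and sex was not a term in the fits. The 8 hepatocyte markers, among them Alb, were all present, their sum at 128601 to 157004 CPM with Cre and 149979 to 152697 CPM with Cre-miR122. CPM is the count of a gene relative to the total of its library, after TMM scaling of that total. The 5 B cell markers, all tested and none at 0, summed to 21.1 to 27.1 CPM with Cre and 12.4 to 16.4 CPM with Cre-miR122. The 4 neutrophil markers summed to 9.06 to 11.9 and 7.21 to 8.78 CPM, with Ly6g at 0 to 2 counts. Neither of these sums overlapped between the groups, and their part in the values below was not tested. For Kupffer cells (391 to 492 CPM with Cre, 328 to 438 CPM with Cre-miR122), sinusoidal endothelium (201 to 241 and 201 to 231), stellate cells (335 to 425 and 367 to 427), cholangiocytes (61.9 to 73.7 and 62.8 to 76.4), erythroid cells (26.6 to 68.2 and 41.3 to 55.6), T cells (2.33 to 2.98 and 2.03 to 2.64) and steroidogenic cells (3.25 to 4.57 and 2.66 to 3.59) the sums overlapped. Exocrine pancreas markers were nearly absent, at no more than 0.193 CPM.

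The promoters of 4 members are shown, chosen for the levels given further below. Idi1, Msmo1 and Srebf2 had all 3 Cre-miR122 libraries above all 3 Cre libraries, and Hmgcs1 was among the members that varied most between libraries. Dhcr7, whose groups did not overlap either, is not shown, as it has 3 listed start sites. Insig1 varied more within groups than Hmgcs1 and is not shown. Each line gives the 250 bases before the annotated start, 5′ to 3′ on the strand of the gene, from RefSeq on GRCm38.p6. Capitals mark matches, on either strand, to the core of the sterol regulatory element bound by SREBP2 (TCACNCCAC), to the NF-Y box (CCAAT) or to the Sp1 box (GGGCGG). NF-Y and Sp1 are general factors known to work beside SREBP2 at such promoters.
Idi1, chr13:8885356-8885605, plus strand: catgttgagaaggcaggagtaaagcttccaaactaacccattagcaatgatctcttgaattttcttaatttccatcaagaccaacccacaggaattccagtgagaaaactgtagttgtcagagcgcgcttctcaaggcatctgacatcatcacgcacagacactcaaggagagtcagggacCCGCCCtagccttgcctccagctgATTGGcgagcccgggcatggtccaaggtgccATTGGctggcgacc
Msmo1, chr8:64733579-64733828, minus strand: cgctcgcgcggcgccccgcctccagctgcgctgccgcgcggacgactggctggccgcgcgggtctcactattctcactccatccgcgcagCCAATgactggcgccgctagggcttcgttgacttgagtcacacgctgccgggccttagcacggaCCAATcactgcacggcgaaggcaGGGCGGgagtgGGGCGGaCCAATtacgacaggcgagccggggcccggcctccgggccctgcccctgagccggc
Srebf2, chr15:82147019-82147268, plus strand: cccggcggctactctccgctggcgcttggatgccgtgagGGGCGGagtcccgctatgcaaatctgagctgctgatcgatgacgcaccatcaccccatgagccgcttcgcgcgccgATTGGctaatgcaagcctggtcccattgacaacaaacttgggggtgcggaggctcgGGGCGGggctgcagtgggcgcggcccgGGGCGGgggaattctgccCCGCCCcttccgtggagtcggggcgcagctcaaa
Hmgcs1, chr13:119690101-119690350, plus strand: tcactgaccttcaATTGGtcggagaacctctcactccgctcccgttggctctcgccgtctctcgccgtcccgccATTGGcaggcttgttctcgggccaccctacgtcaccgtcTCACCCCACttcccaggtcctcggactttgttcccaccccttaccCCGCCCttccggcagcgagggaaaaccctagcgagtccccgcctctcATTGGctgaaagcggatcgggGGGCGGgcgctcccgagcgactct

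Among the members searched, the Hmgcs1 promoter alone held the sterol element core, on the plus strand, its match beginning 137 bases before the start. Its NF-Y boxes began 237, 176 and 45 bases before the start. In the Idi1 promoter NF-Y boxes began 45 and 14 bases before the start, in that of Msmo1 160, 96 and 55 bases, and in that of Srebf2 135 bases. Promoter sequences matched 22 of the 27 members by symbol, with 28 start sites in all, and those of Fdft1, Soat2, Stard4, Sqle and Fdps were not searched. An NF-Y box was present at 20 of these 28 start sites (71.4%), against 33.8% of all 32851 promoters of the same length, and a Sp1 box at 21 (75%), against 32.7%. The sterol element core was present at 1 of 28 (3.57%), against 1.05% of all promoters. All promoters here include those of genes too low to be tested, and they were not matched to the members for expression or base composition. Genes with several start sites count more than once. Whether the higher shares are particular to these genes was not tested. A match describes letters only, and no match says nothing about binding.

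The members spanned a wide range of levels, given here as TPM, which divides counts by the exon length of each gene before relating them to the library total. The order below depends on that length, a single value per gene, such as 8769 bases for Fdft1 and 2286 for Soat2. Which transcripts of each gene were present was not examined. Insig2 was highest with a mean of 144 TPM over the 6 libraries (range 126 to 182), followed by Ebp at 130 (124 to 133) and Sc5d at 118 (94.8 to 141). Insig2 encodes the INSIG form that predominates in liver, Ebp the sterol isomerase and Sc5d the sterol desaturase of the last steps. Hmgcs1, the HMG-CoA synthase that commits acetoacetyl-CoA to the pathway, stood at 78.2 TPM (49.4 to 95.4). Soat2, which esterifies cholesterol, was at 57.8 TPM and the escort gene Scap at 54.9 TPM. Next came Tm7sf2 (38.2), Insig1 (33.4) and Acat2 (29.8), and then a run of genes from Stard4 (18.2 TPM) down to Nsdhl (6.06 TPM). The lowest of the tested members were Lss (4.44 TPM), Ggps1 (3.97), Idi1 (3.19), Mvd (3.14) and Sqle (2.98), so the squalene monooxygenase gene Sqle lay at the foot of the order. Neighbours in this order overlapped over the 6 libraries except at 3 places among tested members, below Scap, below Acat2 and below Nsdhl.

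**Figure D1:**
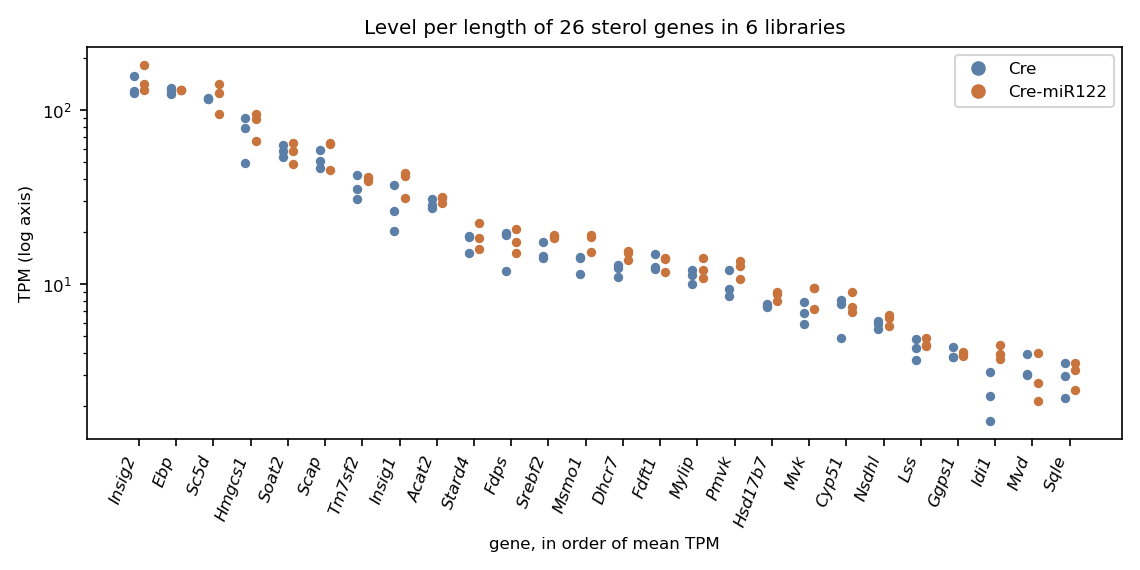
Level per length (TPM, log axis) of the 26 tested members in order of their mean, each point being 1 library, coloured by vector. Levels run from 144 TPM for Insig2 to 2.98 TPM for Sqle, and Idi1 runs from 1.63 to 4.48 TPM.

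Npc1l1, the sterol uptake protein of the intestine, had 1 count in Cre replicate 11 and 0 in each of the other 5 libraries. A count of 0 has an exact Poisson upper limit of 3.69 counts at the 95% level, for counting error only. Of the 5 enterocyte markers Sis was at 0 in all 6 libraries and Lct had 0 to 4 counts. Fabp2 and Anpep, which hepatocytes also express, made up nearly all of their sum (211 to 218 CPM with Cre, 199 to 232 CPM with Cre-miR122).

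Between the vectors no member was called by edgeR's quasi-likelihood test at an adjusted p under 0.05, and neither was any of the 14374 genes tested (0%). Over all tested genes 778 had an unadjusted p under 0.05, and DESeq2 called 3 genes over the table, none of them a member. The smallest adjusted p among the members was 0.816 in edgeR. At an unadjusted p under 0.05 there were 4 members higher with Cre-miR122, Idi1, Msmo1, Srebf2 and Dhcr7, and 0 lower, of 26, where 2.76% of all tested genes were higher and 2.65% lower by the same rule. DESeq2 also called 0 members, with 4 at an unadjusted p under 0.05 (14.8%, against 2.28% of all genes it tested), with Insig1 in the place of Dhcr7. It was run without a filter on low counts, on 27 members, Npc1l1 included, and 23339 genes. Many of these genes were too low for edgeR's filter, so the 2.28% is not a like background for the members. Limma-voom called 0 members, with 5 at that threshold (19.2%, against 5.54%), the edgeR 4 and Insig1. The log2 fold change, Cre-miR122 minus Cre, was above 0 for 21 of 26 members (49.4% of all tested genes) and its median was 0.13, against -0.0029 over all tested genes. In 4 members all Cre-miR122 libraries lay above all Cre libraries and in 0 below, where 5.69% and 5.45% of tested genes did so. The members were picked with earlier results of these libraries known, so these counts describe them and test nothing.

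**Figure D2:**
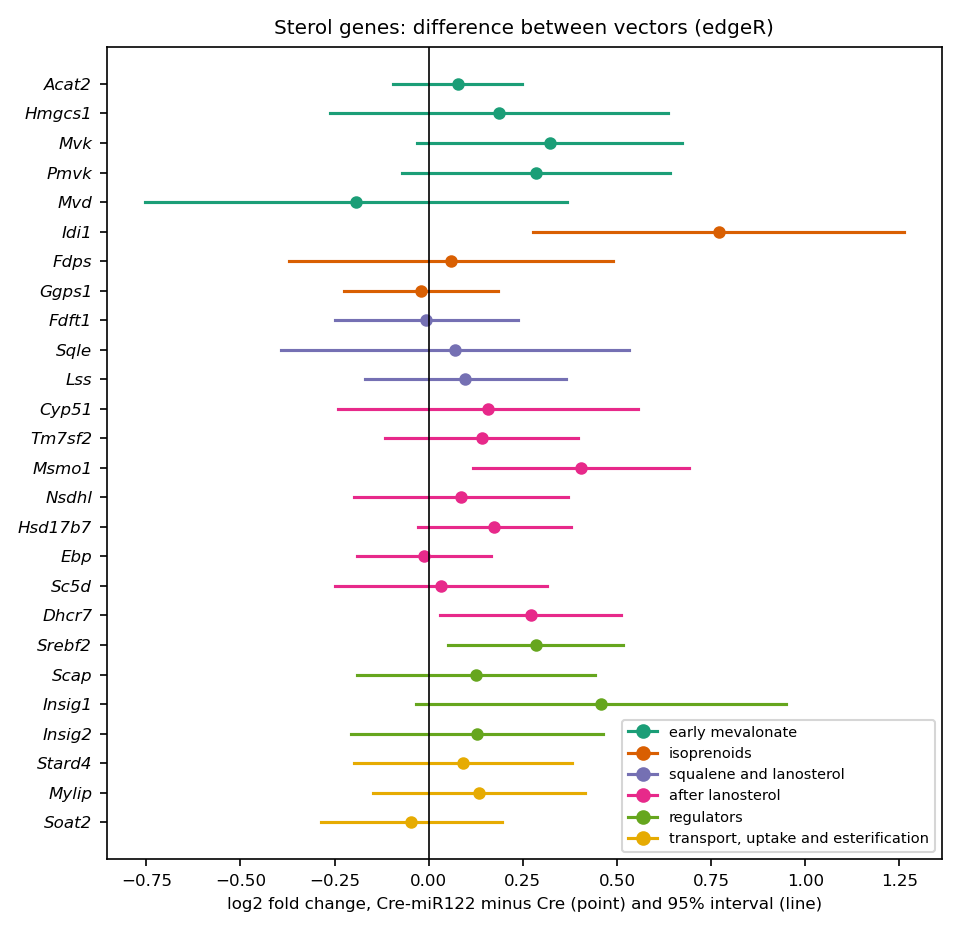
Log2 fold change (points) with its 95% interval (lines) for each tested member in pathway order, from edgeR with 3 libraries a group. The intervals of Idi1, Msmo1, Dhcr7 and Srebf2 lie above 0 and the other 22 include it.

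The 95% intervals were not adjusted for the number of genes and cover the spread between these libraries only. In edgeR the variance of each gene is drawn toward a trend over all tested genes. The width of an interval thus does not follow the gene's own spread alone, for members that varied much or little. These intervals lay within a 2-fold change in either direction for 25 of 26 members, the exception being Idi1, and within a 1.5-fold change for 19. The narrowest belonged to Acat2 (-0.09 to 0.25 on the log2 scale) and the widest to Mvd (-0.75 to 0.37). A value whose interval includes 0 was not shown to be equal between the vectors.

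Among the early enzymes, which build mevalonate and activate it, levels overlapped between the groups for all 5. Acat2, the thiolase that joins acetyl-CoA, was at 29.4, 30.2 and 28.1 CPM with Cre (replicates 10, 11 and 12, the order used throughout) and at 30.1, 31.0 and 31.3 CPM with Cre-miR122 (replicates 1, 2 and 4). It varied least of the members within groups. Hmgcs1 was at 90.6, 136 and 165 CPM with Cre and at 121, 157 and 167 CPM with Cre-miR122. Cre replicate 10 was thus the lowest library, and the log2 fold change of 0.19 (SE 0.199) became -0.019 without it. Mvk, mevalonate kinase, was at 5.25, 5.73 and 6.95 CPM with Cre and 6.33, 8.03 and 8.03 CPM with Cre-miR122, with only Cre replicate 12 inside the Cre-miR122 range. The phosphomevalonate kinase gene Pmvk had a similar order, 7.93, 6.90 and 10.2 CPM against 9.08, 11.02 and 10.4 CPM. Log2 fold changes were 0.32 (SE 0.157) for Mvk and 0.29 (SE 0.158) for Pmvk, the latter 0.16 without Cre replicate 11 and 0.46 without Cre replicate 12. Mvd, the decarboxylase that follows, went the other way at -0.19 (SE 0.249), with 39 to 75 counts per library and a value of 0.0031 without Cre-miR122 replicate 4. Acat2 has a near-identical copy in the mouse genome, Acat3, with 2777 to 3537 counts per library, and the sources used here do not say how reads that match both were counted, so the values of Acat2 are uncertain.

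Isoprenoid units are made next, and here the largest difference among the members was found. Idi1 (chr13:8885606-8892396), the isomerase that supplies dimethylallyl diphosphate, was at 2.33, 3.08 and 4.45 CPM with Cre and at 5.24, 6.14 and 5.42 CPM with Cre-miR122. All 3 Cre-miR122 libraries lay above all 3 Cre libraries, with means of 3.29 ± 1.08 and 5.599 ± 0.478 CPM (SD, n = 3 each). The fold was 1.71 (95% interval 1.21 to 2.40, log2 fold change 0.77, SE 0.219). In edgeR the unadjusted p was 0.00618 and the adjusted p 0.816, and an exact two-sided permutation test gave p = 0.1, the smallest that 3 against 3 libraries allow. These values rest on few reads, 47, 66 and 89 counts in the Cre libraries against 105, 127 and 112 in the others. The exact 95% Poisson interval of the highest Cre library, 3.57 to 5.48 CPM, overlapped that of the lowest Cre-miR122 library, 4.28 to 6.34 CPM. Idi2, a near copy of Idi1, had at most 2 counts in any library. Fdps, the farnesyl diphosphate synthase, was at 8.72, 13.6 and 13.9 CPM against 15.0, 12.2 and 10.6 CPM, a log2 fold change of 0.06 (SE 0.191) that turned to -0.13 when Cre replicate 10 was left out and to -0.085 when Cre-miR122 replicate 1 was. Ggps1, which makes the geranylgeranyl group used to anchor proteins in membranes, varied little, from 13.1 to 14.5 CPM over all 6 libraries.

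The squalene and lanosterol steps showed no separation. Fdft1, squalene synthase, was at 56.5 ± 7.09 CPM in Cre libraries and 56.3 ± 4.69 CPM in Cre-miR122 libraries (SD, n = 3 each). Sqle, which oxidises squalene, was at 3.02, 4.57 and 4.05 CPM against 4.79, 4.21 and 3.24 CPM, so that the lowest library of each group lay near 3 CPM. Lss, which closes the rings to lanosterol, was at 14.3 ± 1.94 and 15.3 ± 1.22 CPM. Sqle had a log2 fold change of 0.07 (SE 0.206), which turned to -0.081 when Cre replicate 10 was left out and to -0.060 when Cre-miR122 replicate 1 was. Exons of Fdft1 overlapped those of Ctsb, exons of Lss those of 4930483K19Rik, and exons of Tm7sf2 those of Vps51, and reads in the shared bases make these 3 less certain, since the sources used here do not say how they were counted.

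After lanosterol, 8 members trim and reduce the sterol to cholesterol, and 2 of them, Msmo1 and Dhcr7, had groups that did not overlap. Both were higher with Cre-miR122, where 5.69% of all tested genes were higher without overlap and 5.45% lower. Msmo1 (chr8:64718145-64733578), the methylsterol oxygenase, was at 10.4, 12.1 and 12.9 CPM with Cre and at 16.8, 16.7 and 13.3 CPM with Cre-miR122. Cre-miR122 replicate 4 thus lay just above Cre replicate 12. The log2 fold change was 0.40 (SE 0.127, edgeR adjusted p = 0.816, unadjusted p = 0.0109). Dhcr7 (chr7:143823167-143848410), the reductase of the last step in one branch, was at 19.5, 16.2 and 20.1 CPM with Cre and at 24.0, 20.6 and 22.7 CPM with Cre-miR122. Here the gap between Cre replicate 12 and Cre-miR122 replicate 2 was also small, and the log2 fold change was 0.27 (SE 0.107, unadjusted p = 0.031). Cyp51, the lanosterol demethylase, was at 10.6, 15.8 and 17.5 CPM against 15.9, 18.7 and 14.4 CPM, with Cre replicate 10 the lowest. Its log2 fold change of 0.16 (SE 0.177) was -0.028 without that library. Hsd17b7, a ketosteroid reductase, was at 20.6 ± 0.992 CPM in Cre libraries and 23.2 ± 1.88 CPM in Cre-miR122 libraries. The other 4 had log2 fold changes of 0.14 (Tm7sf2, a sterol reductase), 0.09 (Nsdhl, a decarboxylating dehydrogenase), 0.03 (Sc5d) and -0.01 (Ebp). Ebp stayed between 102 and 116 CPM in all 6 libraries.

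**Figure D3:**
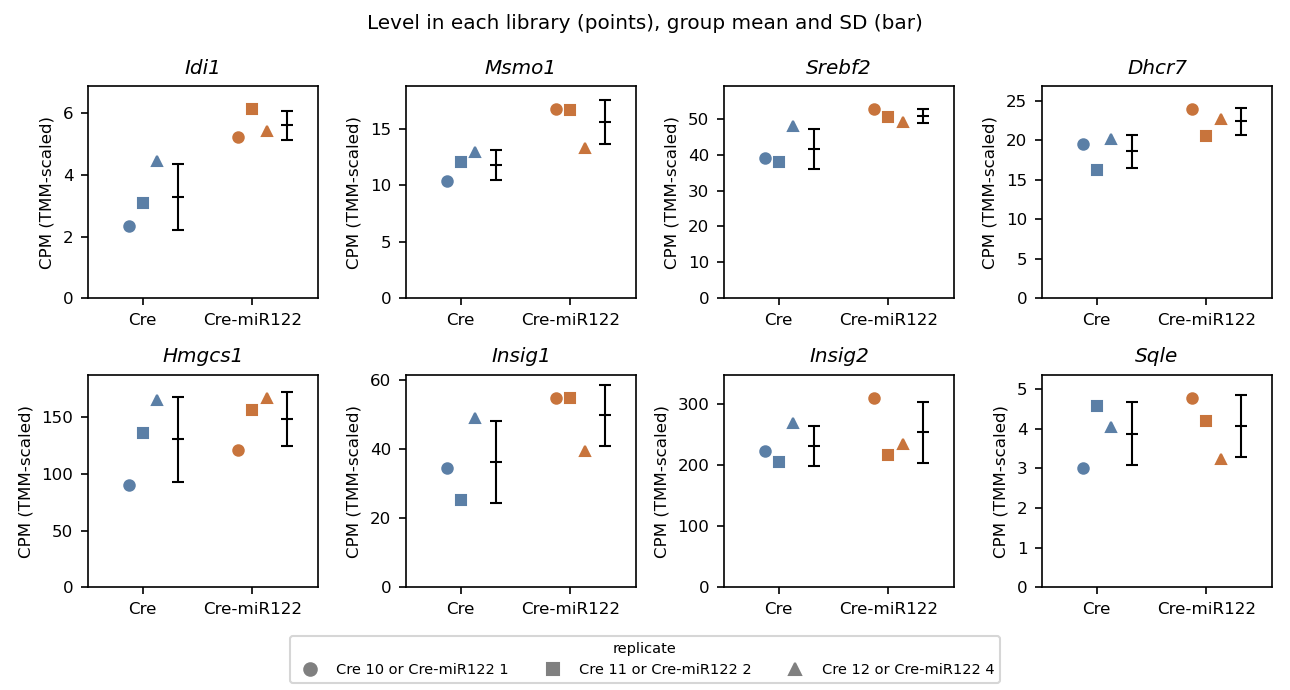
CPM of 8 members in each library (points, shape giving the replicate), with the mean and SD of each group of 3 beside them. The points of the vectors do not overlap for Idi1, Msmo1, Srebf2 and Dhcr7, and they overlap for Hmgcs1, Insig1, Insig2 and Sqle.

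The 4 regulators all had log2 fold changes above 0, as did 49.4% of all tested genes. The groups did not overlap for 1 of them, where 5.69% of all tested genes were higher without overlap. Srebf2 (chr15:82147269-82205379) was at 39.0, 37.9 and 48.1 CPM with Cre and at 52.8, 50.4 and 49.0 CPM with Cre-miR122. The means were 41.6 ± 5.58 and 50.7 ± 1.91 CPM (SD, n = 3 each), a 1.22-fold difference with a 95% interval of 1.04 to 1.43 (log2 fold change 0.28, SE 0.103, edgeR adjusted p = 0.816, unadjusted p = 0.0215). Cre replicate 12 lay close to the Cre-miR122 libraries. Insig1, a target of SREBP2 as well as its brake, was at 34.6, 25.3 and 49.0 CPM with Cre and at 55.0, 55.0 and 39.5 CPM with Cre-miR122. Its range over the 6 libraries was 2.17-fold, Cre replicate 11 being lowest, and the log2 fold change was 0.46 (SE 0.218, unadjusted p = 0.0646), 0.25 without Cre replicate 11 and 0.74 without Cre replicate 12. Insig2 was at 222, 205 and 268 CPM against 310, 216 and 233 CPM, so that Cre-miR122 replicate 1 alone stood high, and 0.13 (SE 0.149) turned to -0.044 without it. Scap was at 119, 103 and 136 CPM against 105, 142 and 144 CPM.

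Of the transport and esterification genes, none had groups apart. Stard4, a carrier of sterol between membranes, was at 46.4 ± 5.16 CPM in Cre libraries and 49.4 ± 8.01 CPM in Cre-miR122 libraries. Mylip, a ubiquitin ligase that marks lipoprotein receptors for degradation and is induced by LXR rather than SREBP2, was at 16.2 ± 1.54 and 17.8 ± 2.701 CPM. Soat2 was at 65.3 ± 5.68 and 63.2 ± 7.54 CPM (SD, n = 3 in each case).

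Libraries of the same group differed from each other in these genes, and the members were often low in the same library. The lowest value was in Cre replicate 10 for 11 of 26 members (42.3%), against 15.8% of all tested genes, and in Cre replicate 11 for 8 (30.8%), against 23.9%. The highest was in Cre-miR122 replicate 1 for 11 (42.3%), against 15.9%. All 4 regulators were lowest in Cre replicate 11, and so were Pmvk, Hsd17b7, Ebp and Dhcr7. Of the others, Hmgcs1, Mvk, Idi1, Fdps, Sqle, Lss, Cyp51, Tm7sf2, Msmo1, Stard4 and Mylip were lowest in Cre replicate 10. As a mean of log2(CPM + 0.5) over the 26 members, relative to the mean of the 6 libraries, Cre replicate 10 lay at -0.20, Cre replicate 11 at -0.11 and Cre replicate 12 at 0.086. The Cre-miR122 libraries lay at 0.092, 0.12 and 0.018 (replicates 1, 2 and 4), so Cre replicate 12 lay within their range. Without TMM scaling Cre replicate 11 lay at -0.038, Cre replicate 12 at 0.051 and Cre-miR122 replicate 4 at 0.0092. Cre replicate 10, which differed in sex-linked genes, was below all Cre-miR122 libraries for 17 members, Cre replicate 11 for 13 and Cre replicate 12 for 5. The same counts were not made over all tested genes, so they describe the members only. With 1 male library, in the Cre group, sex cannot be told apart from that library. Its part in the differences between the vectors was not tested.

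**Figure D4:**
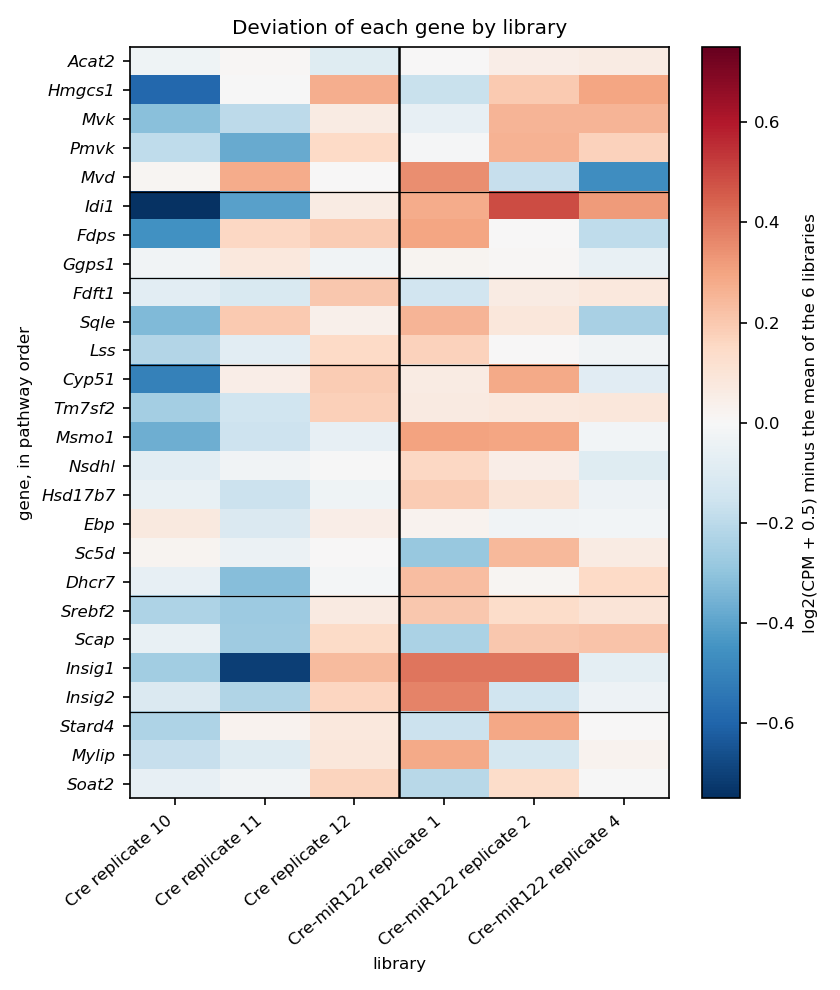
Deviation of log2(CPM + 0.5) from the mean of the 6 libraries for each tested member (rows, pathway order) and library (columns, the vertical line dividing the vectors). Blue is low and red is high, and the means of the columns run from -0.20 for Cre replicate 10 to 0.12 for Cre-miR122 replicate 2.

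Values with each library left out showed how far the comparison rests on single libraries. Without Cre replicate 10 the median log2 fold change of the members was 0.058, with 18 of 26 above 0, and 3 members at an unadjusted p under 0.05 (11.5%, against 5.64% of all genes tested then). Without Cre replicate 12 the median was 0.21, with 24 of 26 above 0 and 8 at an unadjusted p under 0.05 (30.8%, against 10.5%). Without Cre replicate 11 there were 2 members at that threshold, Idi1 and Msmo1 (7.69%, against 3.22%). Idi1 ran from 0.58 without Cre replicate 10 to 1.05 without Cre replicate 12, and Msmo1 from 0.32 without Cre replicate 10 to 0.51 without Cre-miR122 replicate 4. Their unadjusted p stayed under 0.05 in all 6 of these fits, while the smallest adjusted p of any member in them was 0.431. Srebf2 ran from 0.22 to 0.40 and Dhcr7 from 0.18 to 0.33, with unadjusted p of up to 0.0767 and 0.105. In all 6 fits, which share most of their libraries, 14 of 26 members lay above 0, some of them barely. The same count was not made over all tested genes. Without Cre replicate 10 Tm7sf2 was at 0.053 and Lss at 0.014, without Cre replicate 11 Scap was at 0.029, and without Cre-miR122 replicate 1 Nsdhl was at 0.021 and Mylip at 0.011.

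**Figure D5:**
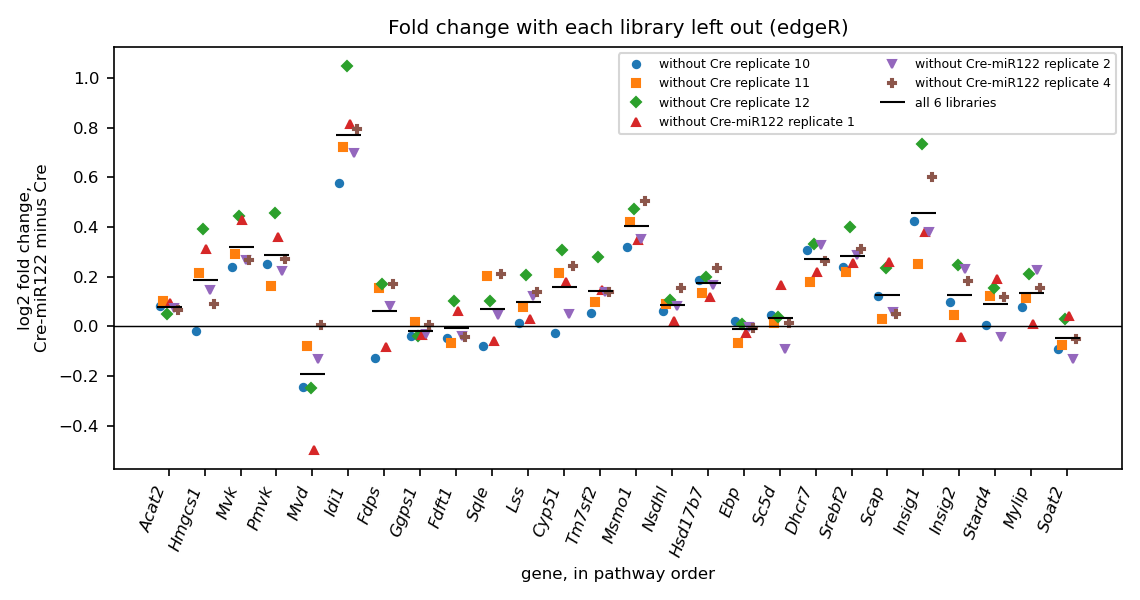
Log2 fold change of each tested member with all 6 libraries (black bar) and with each library left out in turn (coloured points). In every fit 14 members lie above 0, Idi1 and Msmo1 among them, and Hmgcs1, Fdps, Sqle and Cyp51 fall below 0 without Cre replicate 10.

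Genes around the pathway were read from 5 other lists in the same fit, and 0 of their 65 genes, all tested, were called (0% of all tested genes). Over all tested genes 49.4% had a log2 fold change above 0. Of 12 genes that process SREBP or degrade enzymes on sterol's signal, 8 lay below 0 and 4 above, the median log2 fold change being -0.013. Syvn1, a ubiquitin ligase of the endoplasmic reticulum, was at 70.02 ± 13.3 CPM in Cre libraries and 55.8 ± 2.42 CPM in Cre-miR122 libraries, and Sec23a, a coat protein of vesicles leaving it, at 80.8 ± 1.498 and 89.6 ± 4.84 CPM. Of 14 further SREBP targets, mostly of fatty acid synthesis, 12 lay above 0 with a median of 0.088 and 0 at an unadjusted p under 0.05. The fatty acid synthase gene Fasn was at 49.6 ± 4.81 and 56.7 ± 1.80 CPM, and the malic enzyme gene Me1 at 21.6 ± 1.43 and 20.4 ± 1.57 CPM. Of 11 genes of the LXR axis and sterol export 6 lay above 0, with a median of 0.0047. Among them the receptor partner gene Rxra was at 363 ± 20.8 and 416 ± 37.7 CPM, and the LXR gene Nr1h3 at 88.3 ± 6.75 and 82.8 ± 1.35 CPM. Of 14 genes of the prenylation, dolichol and ubiquinone branches 8 lay above 0 (median 0.033), with Icmt, a methyltransferase of prenylated proteins, at 32.7 ± 1.09 and 35.7 ± 1.23 CPM and Rce1, their protease, at 10.1 ± 1.97 and 8.74 ± 0.348 CPM. Of 14 genes of sterol handling inside the cell 9 lay above 0 (median 0.033). Stard5, a sterol carrier, was at 105 ± 16.0 and 119 ± 4.53 CPM and Cyp7b1, an oxysterol hydroxylase of bile acid synthesis, at 1.98 ± 0.496 and 1.34 ± 0.169 CPM (SD, n = 3 in each case). Only Syvn1 and Cyp7b1 of the 65 had an unadjusted p under 0.05 (0.027 and 0.0434), both lower with Cre-miR122, where 5.41% of all tested genes had one. As these are bulk samples, fewer cells of a type and less RNA per cell cannot be told apart.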

How the data were processed

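The authors deposited whole-number read counts per gene for bulk liver RNA, not normalized, with an exon length per gene. The tools in the submitters' processing notes are featureCounts 2.0.1 and STAR 2.7.9a, and the build is GRCm38 (mm10). The sources used here do not state the settings for strand or multiply matching reads. The 5 sample columns that match no labelled sample were not used.

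Groups and replicate numbers came from the sample titles. Of 35977 genes, 14374 passed edgeR's filterByExpr and were fitted with glmQLFit and glmQLFTest (edgeR 4.0.16, R 4.3.3), TMM scaling and group alone, adjusted by Benjamini-Hochberg over all of them, two-sided. Standard errors and 95% intervals were derived from the F statistic, and TPM from counts and exon lengths. The fits were also run on simulated counts with set changes of at least 2-fold, larger than any member's change with all 6 libraries. DESeq2 1.42.0, limma-voom (limma 3.58.1), other scalings and filters, and leaving out each library were run beside the main fit. Members and lists were chosen with earlier results of these data known. All members are named, and from each other list the gene with the smallest p in each direction. Protein sequences were not used here.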

Additional observations from a re-analysis of the deposited data

How the results depend on the processing

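No paired analysis was possible because the groups share no replicate number. Over the settings run, no member was called, the smallest adjusted p of any member being 0.431, and no member changed sign under another scaling, filter or tool. Over the whole table edgeR without a filter on low counts called 2 genes, with 1169 at an unadjusted p under 0.05 of more genes tested, and DESeq2 called 3. Without scaling, 4 members were highest in Cre replicate 11 and 2 in Cre-miR122 replicate 4, and the mean deviation of the members was -0.038 in Cre replicate 11, 0.051 in Cre replicate 12 and 0.0092 in Cre-miR122 replicate 4. Leaving out each library gave 425 to 1535 genes and 2 to 8 members at an unadjusted p under 0.05, and 4 to 10 members above and 0 to 1 below without overlap. The share above was 15.4% to 38.5% of members, against 8.56% to 14.4% of all genes tested in those fits. The share below was 0% to 3.85% of members, against 8.58% to 14.1% of all genes. The ends of these ranges need not come from the same fit.

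Signs turned in those fits for 12 members, whose log2 fold changes ran from -0.019 to 0.39 (Hmgcs1), -0.50 to 0.0031 (Mvd), -0.13 to 0.17 (Fdps), -0.039 to 0.018 (Ggps1), -0.066 to 0.10 (Fdft1), -0.081 to 0.21 (Sqle), -0.028 to 0.31 (Cyp51), -0.066 to 0.023 (Ebp), -0.092 to 0.17 (Sc5d), -0.044 to 0.25 (Insig2), -0.043 to 0.19 (Stard4) and -0.13 to 0.040 (Soat2). The cause was not tested. Depth limits Idi1, Mvd and Sqle, with 39 to 127 counts per library.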

Other observations

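The spread between libraries of a group differed widely among the members. The pooled SD within groups, on the scale of log2(CPM + 0.5), was 0.384 for Insig1 and 0.355 for Hmgcs1, above those of 95.5% and 93.9% of all tested genes. It was 0.0411 for Acat2 and 0.0534 for Ggps1, above those of 2.09% and 4.88% only. The median over the 26 members was 0.182, against 0.148 over all tested genes.

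The balance of the INSIG forms also varied between libraries. Per length, Insig2 exceeded Insig1 by 4.94-fold, 6.21-fold and 4.20-fold in Cre replicates 10, 11 and 12, and by 4.33-fold, 3.02-fold and 4.54-fold in Cre-miR122 replicates 1, 2 and 4. The groups overlapped in this ratio.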
